A study of Homo sapiens with 10 samples.

Results

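Transcripts of 10 enzymes that build, recycle or break down glutathione were followed under imidazole ketone erastin (IKE) in CFPAC-1 and PANC-1, lines of human pancreatic ductal adenocarcinoma. The 10 genes, GCLC, GCLM, GSS, GSR, GGCT, CHAC1, CHAC2, OPLAH, GGT1 and GGT7, were chosen by name, and each matched 1 row of the 20289 genes in the table. CFPAC-1 cells received 10 µM IKE and PANC-1 cells 1 µM IKE for 24 h, and the controls of each line received 0.1% DMSO, the solvent, for 24 h. There were 4 libraries of PANC-1 with IKE and 2 of each other group. Dead cells and debris were removed before total RNA was taken, so the libraries describe cells that survived. A change within each cell and a shift in which cells remained cannot be told apart, and the line and the dose of IKE cannot be told apart either.

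Glutathione is made from glutamate, cysteine and glycine and is the main small thiol of the cytosol. Glutamate-cysteine ligase joins glutamate to cysteine in the rate-limiting step. Its catalytic chain is encoded by GCLC, and its modifier chain, which raises the activity of the catalytic chain, by GCLM. Glutathione synthetase (GSS) then adds glycine, and glutathione reductase (GSR) returns the oxidised form to the reduced form with NADPH. CHAC1 and CHAC2 cleave glutathione inside the cell, GGCT releases 5-oxoproline from gamma-glutamyl amino acids, and OPLAH opens 5-oxoproline to glutamate. GGT1 removes the gamma-glutamyl group from glutathione at the outer cell surface, and GGT7 is a member of the same family. IKE blocks the cystine importer of the cell, system xc-, and so withholds the cysteine used in the first step. GCLC, GCLM and GSR are textbook targets of the oxidative stress factor NRF2, and CHAC1 of the amino acid stress factor ATF4.

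Because these genes are known for the factors that act on them, the DNA at their start sites was read. RefSeq promoter windows of 300 bases (250 before and 50 after the start, GRCh38.p14) were matched for 6 of the 10 genes, with 8 windows in all. They were searched on both strands for the antioxidant response element core TGACNNNGC, bound by NRF2, for the C/EBP-ATF response element TGATGNAA, bound by ATF4 with its partners, for the cAMP response element TGACGTCA, and for TGACGT, which the last also holds. Of all 35116 windows in the table, 13.3% held the first, 3.62% the second, 1.85% the third and 7.98% the fourth. The stretches of the 3 genes with the largest responses are shown 5′ to 3′ on the strand of the gene, with matches in capitals. GCLM (chr1:93909456-93909680, minus strand) held an antioxidant response element core on the other strand, 25 bases before the RefSeq start. CHAC1 (chr15:40953251-40953280, plus strand) held a C/EBP-ATF response element on the other strand, 201 bases before the RefSeq start, in a stretch that GENCODE 29 counts as untranslated exon of longer transcripts. GCLC (chr6:53545130-53545351, minus strand) had none of the 4 motifs in its window.
GCLM: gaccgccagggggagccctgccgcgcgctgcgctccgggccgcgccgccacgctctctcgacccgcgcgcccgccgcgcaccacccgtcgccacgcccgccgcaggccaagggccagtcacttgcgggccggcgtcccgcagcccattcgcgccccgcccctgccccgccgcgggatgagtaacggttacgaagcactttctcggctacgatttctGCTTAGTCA
CHAC1: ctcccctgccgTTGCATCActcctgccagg
GCLC: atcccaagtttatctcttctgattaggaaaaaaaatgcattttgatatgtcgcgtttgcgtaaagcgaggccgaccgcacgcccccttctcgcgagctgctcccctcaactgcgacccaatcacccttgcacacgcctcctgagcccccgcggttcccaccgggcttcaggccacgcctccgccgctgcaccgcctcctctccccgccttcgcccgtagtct
Among the other windows, 1 of the 2 of GGT1 held an antioxidant response element core, and those of CHAC2 and GGT7 held none of the 4 motifs. A match is a run of letters and was not tested for binding.

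Expression is given in FPKM, fragments per length of transcript and number of mapped fragments, so levels can be compared between genes. The sum of FPKM ran from 405937 to 472665 per library, and read depth is unknown. The ribosomal protein gene RPS29 was the highest gene in every library, with 2.46% to 4.54% of the sum, and mitochondrially encoded mRNAs held 2.65% to 5.27%, most in PANC-1 IKE replicate 3. Of 9 markers of pancreatic duct epithelium, 8 had a mean of at least 1 FPKM in each line, and the duct chloride channel gene CFTR was at 0 to 0.93 FPKM. KRT8, KRT18 and KRT19 were between 721 and 3095 FPKM in both lines, but KRT7 was at 271 to 330 FPKM in CFPAC-1 and 4.39 to 6.15 FPKM in PANC-1, and EPCAM, CDH1 and MUC1 were lower in PANC-1 as well. The mesenchymal gene VIM was at 529 to 607 FPKM in CFPAC-1 and 1910 to 2083 FPKM in PANC-1. ZEB1 was also higher in PANC-1 (6.49 to 9.25 FPKM in CFPAC-1 and 10.64 to 13.38 in PANC-1). The mesenchymal genes CDH2 (36.99 to 41.5 and 14.07 to 16.86 FPKM) and FN1 (23.42 to 34.64 and 0.87 to 1.29 FPKM) were lower in PANC-1. The collagen gene COL1A1 was at 3.56 to 5.64 FPKM in CFPAC-1 and 17.9 to 24.9 FPKM in PANC-1. Acinar markers were at or below 0.27 FPKM, and the leukocyte gene PTPRC at or below 0.03 FPKM. In CFPAC-1 the endothelial gene PECAM1 stood at 18.5 to 21.3 FPKM and the monocyte gene CD14 at 11.2 to 14.7 FPKM, while the endothelial genes CDH5 and VWF stayed at or below 0.03 FPKM in that line.

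With DMSO alone the enzymes covered a wide range of levels. In CFPAC-1 the order from the highest mean was GSR (42.6 FPKM), GSS (30.8), GGT1 (28.0), GCLC (24.2), GGT7 (11.2), GGCT (7.17), GCLM (4.85), OPLAH (1.87), CHAC2 (0.935) and CHAC1 (0.745), and no neighbours in this order overlapped between libraries. In PANC-1 it was GSS (30.6 FPKM), GCLC (24.2), GSR (20.2), GCLM (14.5), GGCT (13.5), OPLAH (4.45), CHAC1 (4.08), GGT7 (3.34), CHAC2 (2.49) and GGT1 (0.815). There GCLM overlapped GGCT, OPLAH overlapped CHAC1, and CHAC1 overlapped GGT7. GSS and GCLC, which act in succession, were thus among the 4 highest in both lines, and the CHAC genes among the lowest in CFPAC-1.

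**Figure D1:**
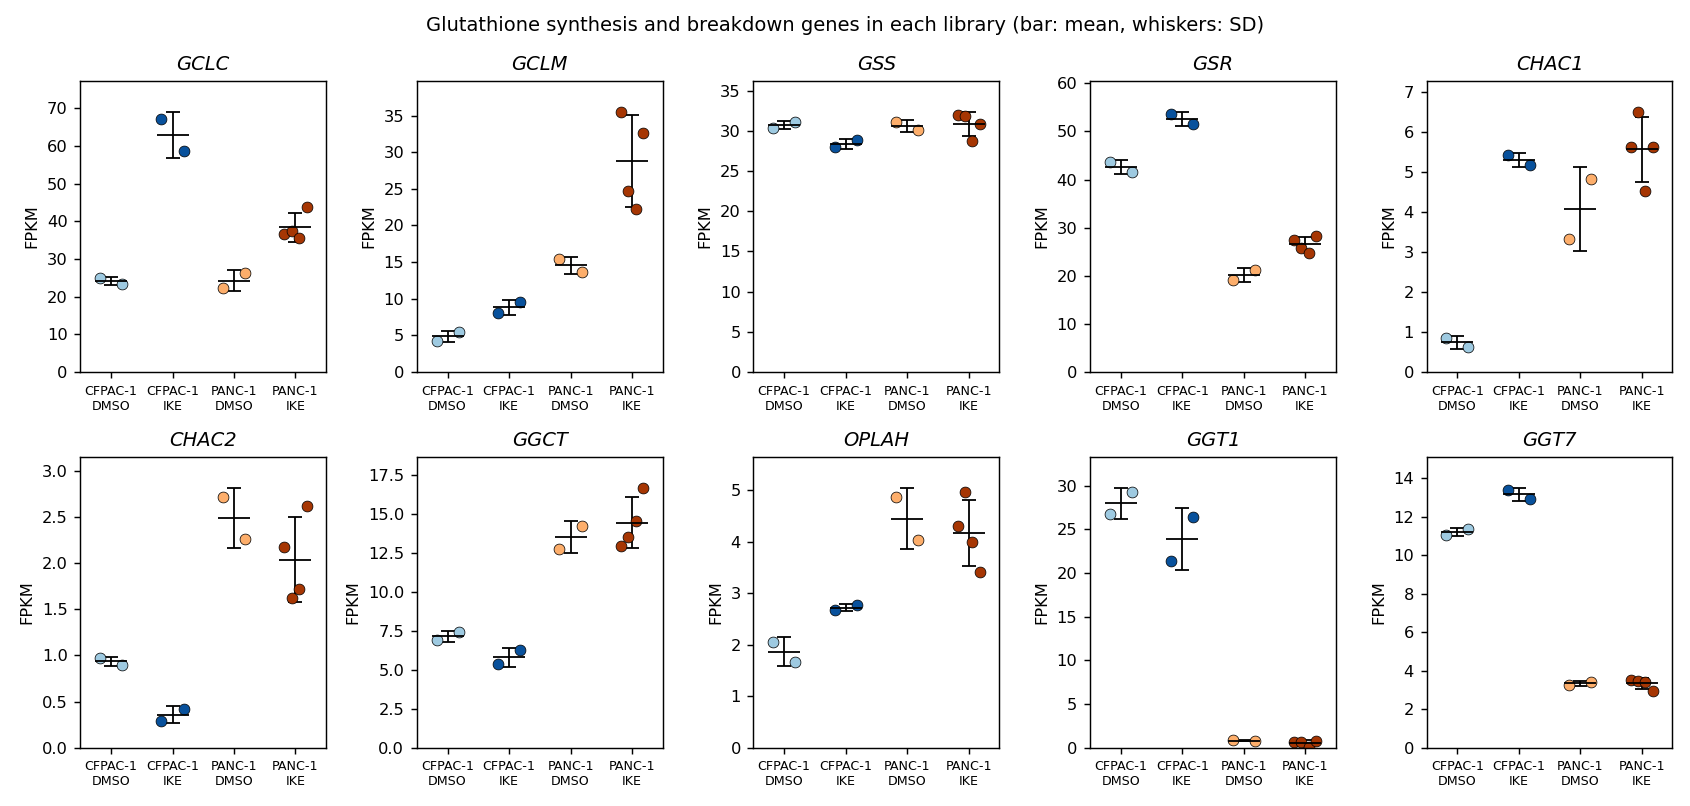
FPKM of each of the 10 genes (y axis, from 0) in every library, by line and treatment (x axis); points are libraries, the horizontal bar is the group mean and the whiskers are the SD (n = 2, 2, 2 and 4). GCLC and CHAC1 stood highest above their DMSO libraries in CFPAC-1 IKE, GCLM was highest in PANC-1 IKE, GSS stayed between 27.96 and 31.99 FPKM, and GGT1 was under 1 FPKM in all PANC-1 libraries.

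The first comparison asked which of these transcripts changed in surviving CFPAC-1 cells under 10 µM IKE. GCLC and CHAC1 rose, that is, transcripts of the catalytic chain of synthesis and of an enzyme of breakdown rose in the same libraries. Changes are log2 fold changes of FPKM + 1, which understate changes of low genes, and a change was called at a limma adjusted p under 0.05 over the 13077 genes tested. All 10 enzymes were among the tested genes. Of them, 2 rose, 0 fell and 8 were not called, while limma called 1.32% of all tested genes (0.864% risen and 0.459% fallen). At an unadjusted p under 0.05, 5 enzymes had higher and 1 had lower values, against 13.6% of all tested genes in either direction. The median change of the 10 enzymes was 0.26, against 0 for all tested genes. In CFPAC-1 the IKE and DMSO libraries of all 10 enzymes did not overlap, 6 of them higher and 4 lower with IKE, while 46.9% of tested genes did not overlap in this comparison (23% higher and 23.9% lower).

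GCLC (ENSG00000001084, chromosome 6, 53497341 to 53616970, GRCh38, GENCODE 29) held 24.93 and 23.41 FPKM in the CFPAC-1 DMSO libraries and 67.12 and 58.49 FPKM in the IKE libraries. Both IKE libraries lay far above both controls, at 2.60 times their mean (24.2 ± 1.07 to 62.8 ± 6.10 FPKM, SD, n = 2 each). The log2 fold change was 1.34 (SE 0.11, adjusted p = 9.04e-05, limma). With IKE, GCLC became the highest of the 10 enzymes in CFPAC-1, above GSR. GCLM, encoding the modifier chain (ENSG00000023909, chromosome 1, 93885205 to 93909456), held 4.29 and 5.41 FPKM with DMSO and 8.12 and 9.57 FPKM with IKE. Its groups did not overlap, but the change was not called (log2 fold change 0.75, SE 0.19, 95% interval 0.33 to 1.18, adjusted p = 0.0939, limma). GSS, of the second step (ENSG00000100983, chromosome 20, 34928433 to 34956027), held 30.42 and 31.09 FPKM with DMSO and 27.96 and 28.83 FPKM with IKE. Its IKE libraries were slightly lower, and the change was not called (-0.11, 95% interval -0.27 to 0.05, adjusted p = 0.570, limma).

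GSR, the recycling enzyme (ENSG00000104687, chromosome 8, 30678061 to 30727999), held 43.58 and 41.56 FPKM in CFPAC-1 with DMSO and 53.60 and 51.64 FPKM with IKE. The IKE libraries were higher by 1.24 times in mean, and this was not called (log2 fold change 0.30, SE 0.08, adjusted p = 0.122, limma).

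On the breakdown side, CHAC1 (ENSG00000128965, chromosome 15, 40952962 to 40956519) went from 0.86 and 0.63 FPKM with DMSO to 5.44 and 5.19 FPKM with IKE in CFPAC-1. Both controls were under 1 FPKM, and the IKE libraries were alike, at 7.13 times the control mean in FPKM. The log2 fold change was 1.86 (SE 0.16, adjusted p = 1.36e-04, limma). CHAC2, its paralog (ENSG00000143942, chromosome 2, 53767792 to 53775196), had values in the other direction: 0.97 and 0.90 FPKM with DMSO and 0.29 and 0.42 FPKM with IKE. All 4 libraries were under 1 FPKM, and the change was not called (-0.52, SE 0.15, adjusted p = 0.148, limma). The FPKM of CHAC1 was 0.887 and 0.70 times that of CHAC2 with DMSO and 18.8 and 12.4 times with IKE. CHAC2 overlaps ASB3 on the opposite strand, at 11.37 to 13.03 FPKM in CFPAC-1. The use of strand by the authors' counting is not stated, so the low values of CHAC2 are uncertain.

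The remaining enzymes, GGCT, OPLAH, GGT1 and GGT7, were not called in CFPAC-1. GGCT (ENSG00000006625, chromosome 7, 30496621 to 30504844) held 6.92 and 7.41 FPKM with DMSO and 5.35 and 6.25 FPKM with IKE (-0.27, 95% interval -0.54 to 0.0028, adjusted p = 0.373, limma). A further protein-coding locus, AC005154.5, overlaps GGCT on the same strand, so its reads may be split. OPLAH (ENSG00000178814, chromosome 8, 144051266 to 144063965) held 2.06 and 1.67 FPKM with DMSO and 2.67 and 2.77 FPKM with IKE (0.38, adjusted p = 0.271, limma). GGT1 (ENSG00000100031, chromosome 22, 24583750 to 24629005) held 26.72 and 29.21 FPKM with DMSO and 21.38 and 26.42 FPKM with IKE, its groups only just apart (-0.22, 95% interval -0.65 to 0.20, adjusted p = 0.698, limma). GGT7 (ENSG00000131067, chromosome 20, 34844720 to 34872860) held 11.05 and 11.33 FPKM with DMSO and 13.39 and 12.92 FPKM with IKE (0.22, adjusted p = 0.382, limma). Neither of the calls in CFPAC-1, GCLC and CHAC1, was lost when any 1 of the 10 libraries was left out (adjusted p at most 0.00274 and 0.00359).

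The same question was put to the surviving PANC-1 cells under 1 µM IKE. Here the transcripts of both chains of glutamate-cysteine ligase and of the reductase rose, and that of no breakdown enzyme was called. Of the 10 enzymes, 3 rose, 0 fell and 7 were not called, while limma called 2.38% of all tested genes in this comparison (1.21% risen and 1.17% fallen). At an unadjusted p under 0.05, 4 had higher values, with CHAC1 added to the called ones, and 0 had lower values, against 17.6% of all tested genes in either direction. The median change of the enzymes was 0.05, against -0.0063 for all tested genes. In PANC-1 the groups of 3 enzymes did not overlap, the same 3 that were called, against 25.9% of tested genes.

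GCLC held 22.26 and 26.14 FPKM in the PANC-1 DMSO libraries and 36.58, 37.52, 35.43 and 43.90 FPKM in the IKE libraries. Each IKE library was above each control, at 1.59 times their mean (24.2 ± 2.74, n = 2, to 38.4 ± 3.79 FPKM, SD, n = 4). The log2 fold change was 0.64 (SE 0.10, adjusted p = 0.00747, limma). GCLM held 15.40 and 13.68 FPKM with DMSO and 35.46, 24.70, 22.24 and 32.67 FPKM with IKE. The IKE libraries varied more than the controls and all lay above them, at 1.98 times their mean (14.5 ± 1.22 to 28.8 ± 6.30 FPKM). The log2 fold change was 0.92 (SE 0.17, adjusted p = 0.0190, limma). GSR held 19.11 and 21.26 FPKM with DMSO and 27.51, 25.80, 24.70 and 28.24 FPKM with IKE, a log2 fold change of 0.38 (SE 0.07, adjusted p = 0.0212, limma). Its IKE libraries were all above the controls, at 1.32 times their mean. GSS held 31.15 and 30.06 FPKM with DMSO and 28.74 to 31.99 FPKM with IKE, so that its groups overlapped (0.0097, 95% interval -0.13 to 0.15, adjusted p = 0.964, limma).

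The 3 calls in PANC-1 leaned on the control libraries, of which there were 2, and fits that left 1 of them have less power. Without PANC-1 DMSO replicate 1 none of the 3 was called (GCLC adjusted p = 0.137, GCLM 0.135 and GSR 0.246, limma), and all 3 had an unadjusted p under 0.05. Without PANC-1 DMSO replicate 2, GCLM (adjusted p = 0.137) and GSR (0.0672) lost their calls, and GSR lost it also without IKE replicate 1 (0.0513) or 4 (0.0510). In a fit of the PANC-1 libraries alone none was called (GCLC 0.0723, GCLM 0.112 and GSR 0.112). The direction of all 3 was the same in each of these fits.

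CHAC1 held 3.33 and 4.82 FPKM in PANC-1 with DMSO and 5.63, 6.50, 4.52 and 5.62 FPKM with IKE. PANC-1 controls were thus close below the level of CFPAC-1 with IKE, and 1 IKE library lay below 1 control. The change was not called (log2 fold change 0.38, SE 0.14, 95% interval 0.07 to 0.69, adjusted p = 0.198, limma). The groups of CHAC2 (2.72 and 2.26 FPKM with DMSO, 1.62 to 2.62 with IKE), GGCT (12.79 and 14.25, then 12.97 to 16.69), OPLAH (4.87 and 4.03, then 3.42 to 4.97), GGT1 (0.88 and 0.75, then 0.13 to 0.78) and GGT7 (3.26 and 3.42, then 2.94 to 3.53) overlapped as well. Their log2 fold changes lay between -0.24 for GGT1 and 0.09 for GGCT, with adjusted p from 0.451 to 0.994 (limma). The lowest GGT1 value, 0.13 FPKM, was that of IKE replicate 3, the library with the largest mitochondrial share.

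**Figure D2:**
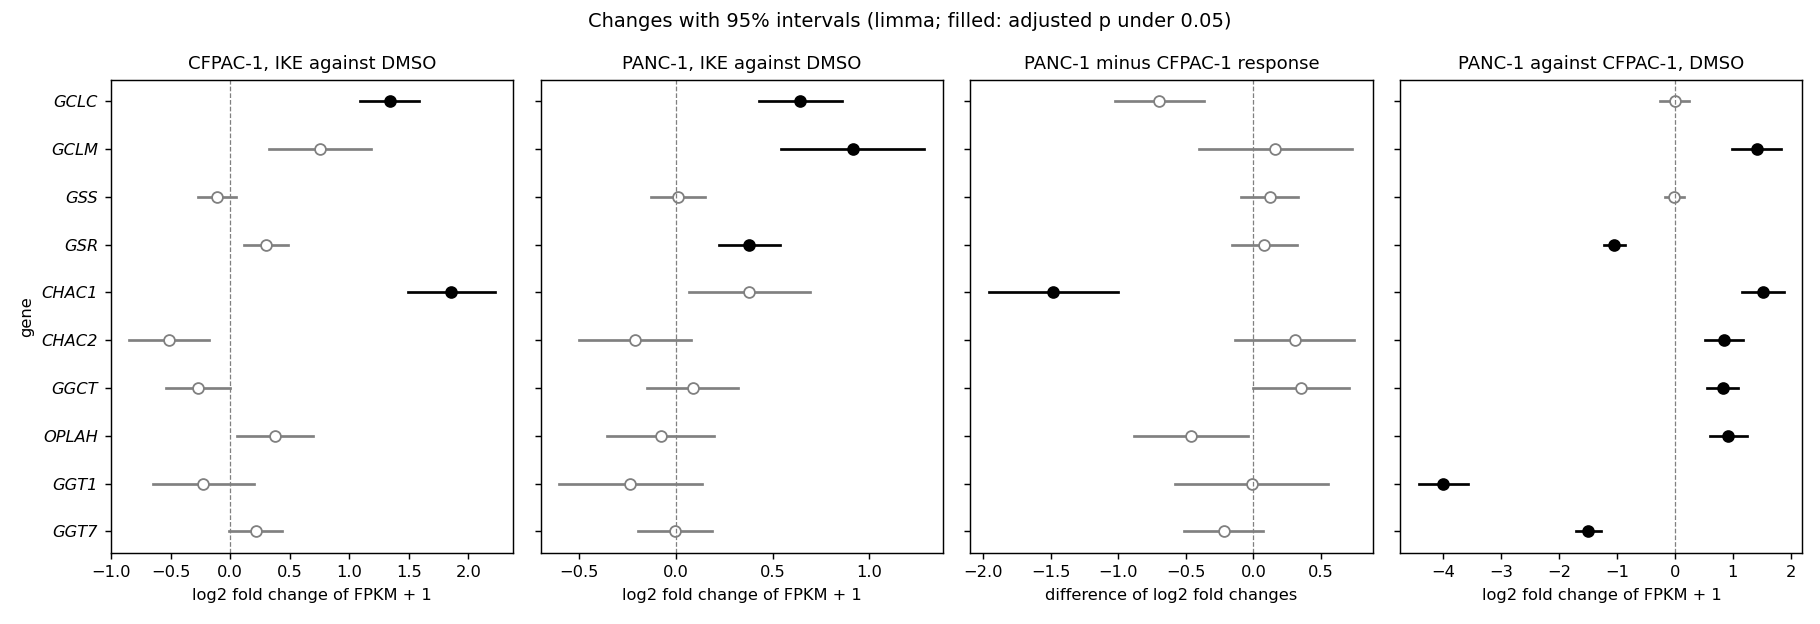
Log2 fold changes of FPKM + 1 (x axis, its range differs between panels) of the 10 genes (y axis) with 95% intervals from limma, for IKE in CFPAC-1, IKE in PANC-1, the PANC-1 response minus the CFPAC-1 response, and the DMSO libraries of PANC-1 against those of CFPAC-1; filled points have an adjusted p under 0.05. IKE called GCLC and CHAC1 in CFPAC-1 and GCLC, GCLM and GSR in PANC-1, and only CHAC1 was called in the test of the difference.

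Whether the responses themselves differed between the lines was tested as the PANC-1 change minus the CFPAC-1 change. CHAC1 was the 1 enzyme of 10 called, with a smaller rise in PANC-1 (difference -1.48 on the log2 scale, SE 0.22, 95% interval -1.96 to -1.0, adjusted p = 0.0176, limma), while 0.336% of tested genes were called, 0.229% with a smaller value in PANC-1. This call was lost without CFPAC-1 DMSO replicate 1 (adjusted p = 0.0542) or 2 (0.0949), CFPAC-1 IKE replicate 1 (0.0819) or 2 (0.0914), or PANC-1 DMSO replicate 2 (0.0804), and with PANC-1 IKE replicates 1 and 2 alone (0.0648). Its value stayed between -1.69 and -1.27 with single libraries left out. The rise of GCLC was smaller in PANC-1 by a difference that was not called (-0.70, 95% interval -1.02 to -0.37, adjusted p = 0.0933), and was called without PANC-1 IKE replicate 4 (-0.76, adjusted p = 0.0483). For GCLM (0.16, 95% interval -0.40 to 0.73) and GSR (0.08, 95% interval -0.16 to 0.32) the difference was not called, at adjusted p = 0.843 and 0.814. That GCLM and GSR were called in PANC-1 alone therefore does not show that they responded differently in CFPAC-1.

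The balance between the transcripts of the chains of glutamate-cysteine ligase differed by line. The FPKM of GCLC was 5.81 and 4.33 times that of GCLM in CFPAC-1 with DMSO and 8.27 and 6.11 times with IKE. In PANC-1 it was 1.45 and 1.91 times with DMSO and 1.03, 1.52, 1.59 and 1.34 times with IKE. The ratios of the lines did not overlap, and those of the PANC-1 treatments overlapped. Those of the CFPAC-1 treatments were only just apart, with IKE higher (5.81 against 6.11). Between the CFPAC-1 treatments the levels of 46.9% of tested genes did not overlap, and the ratio was not tested. GCLC in turn held 0.820 and 0.753 times the FPKM of GSS in CFPAC-1 with DMSO and 2.40 and 2.03 times with IKE. In PANC-1 the ratio of GCLC to GSS was 0.715 and 0.870 with DMSO and ran from 1.14 to 1.42 with IKE. GCLC was thus below GSS in all 4 DMSO libraries and above it in all 6 IKE libraries.

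**Figure D3:**
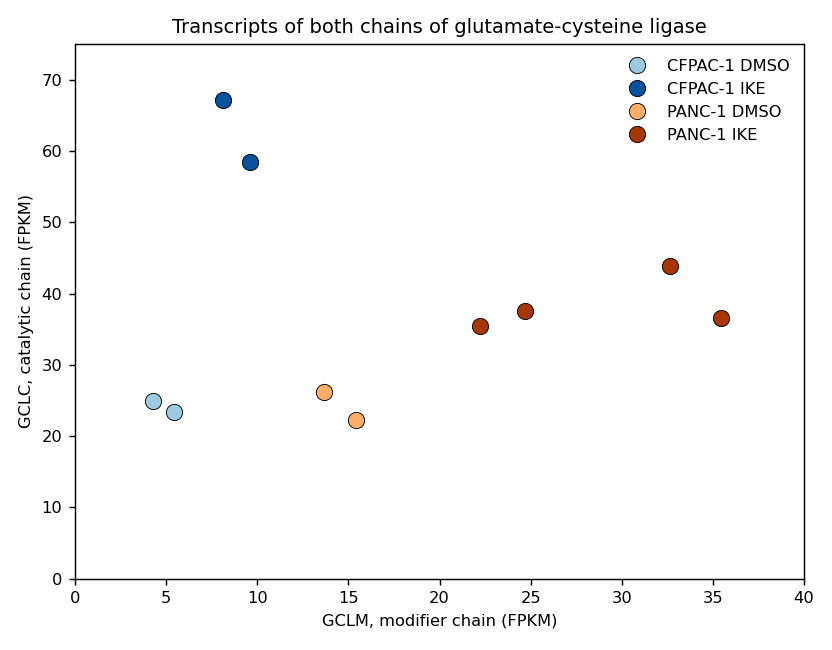
FPKM of GCLC, the catalytic chain (y axis), against FPKM of GCLM, the modifier chain (x axis), with 1 point per library coloured by line and treatment. The CFPAC-1 libraries lie at 4.29 to 9.57 FPKM of GCLM and the PANC-1 libraries at 13.68 to 35.46, while the DMSO libraries of both lines lie at 22.26 to 26.14 FPKM of GCLC.

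PANC-1 and CFPAC-1 were also compared without drug. Of the 10 enzymes, 8 were called, 5 higher and 3 lower in PANC-1. This was close to the background, since limma called 78.7% of all tested genes between the lines (43.4% higher and 35.2% lower in PANC-1), whose median was shifted by 0.12 (-0.0083 with median-ratio scaling). The surface enzyme GGT1 differed most, with 27.97 ± 1.76 FPKM in CFPAC-1 and 0.815 ± 0.0919 FPKM in PANC-1 (SD, n = 2 each), 34.3 times higher in CFPAC-1 (log2 fold change -4.00, SE 0.19, adjusted p = 3.96e-09, limma). All 6 PANC-1 libraries were under 1 FPKM of GGT1, and it passed the filter on low values through CFPAC-1. GGT1 overlaps SNRPD3 on the same strand, which held 41.7 to 53.2 FPKM in CFPAC-1 and 48.3 to 60.6 in PANC-1, and it has near-identical family copies, so its reads may be split; GGT2P, GGTLC1, GGTLC2 and GGTLC3 were at or below 0.26 FPKM in every library. LRRC75B, on the opposite strand of GGT1, held 5.21 to 6.36 FPKM in CFPAC-1 and 0.87 to 1.39 in PANC-1. GGT7 was 3.35 times (-1.49, adjusted p = 7.30e-08) and GSR 2.11 times higher in CFPAC-1 (-1.04, adjusted p = 3.17e-07, limma). GGT7 overlaps ACSS2 on the opposite strand, which was likewise higher in CFPAC-1 (30.5 to 41.7 FPKM, against 9.13 to 12.48 in PANC-1). The length of this overlap was not measured, and the use of strand is not stated. Reads in the shared stretch may have been counted for either gene, so the line difference of GGT7 is uncertain to an unknown degree.

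Higher in PANC-1 with DMSO were CHAC1 by 5.47 times (log2 fold change 1.53, adjusted p = 4.43e-06, limma) and GCLM by 3.00 times (1.41, adjusted p = 3.57e-05). CHAC2 was higher there by 2.66 times (0.85, adjusted p = 3.02e-04), OPLAH by 2.39 times (0.93, adjusted p = 1.04e-04) and GGCT by 1.89 times (0.83, adjusted p = 6.48e-05, limma). CHAC2 was under 1 FPKM in all 4 CFPAC-1 libraries and passed the filter through PANC-1, the line in which it is higher. GCLC (24.2 FPKM in both lines; 95% interval -0.25 to 0.25) and GSS (30.8 and 30.6 FPKM; -0.17 to 0.15) were not called, with adjusted p = 0.988 and 0.934. None of the 8 calls was lost with any 1 library left out.

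The genes whose pattern over the 10 libraries was most like that of each called enzyme were sought among 12223 genes. Likeness is Pearson's r of log2(FPKM + 1) after subtraction of the DMSO mean of the same line, as a description, since all genes share these libraries and the treatment contrast. CHAC1 was most like SLC7A5 (r = 0.983), PGD (0.982) and ATF4 (0.982). GCLC was most like GRB10 (0.986), CBS (0.981) and ASNS (0.977), and GCLM was most like SLC7A11 (0.970), SRXN1 (0.967) and PPIF (0.963). GSR was most like WHAMM (0.990), COX7A2L (0.987) and HSPA1A (0.978), a gene with a near-identical copy. Among all pairs of the 10 enzymes themselves, the highest r were 0.919 between GCLC and CHAC1 and 0.919 between GCLM and GSR. Other pairs were also strong, with 0.760 between GCLC and GSR, 0.703 between GCLC and GCLM and -0.909 between OPLAH and GGCT.

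The neighbouring steps of glutathione metabolism were read from lists, which were chosen with earlier results of these data known. The background over all tested genes was 0.864% risen and 0.459% fallen in CFPAC-1, and 1.21% and 1.17% in PANC-1. Genes that supply cysteine, glutamate and glycine had 7 of 17 tested members risen and 0 fallen in CFPAC-1 (median 0.62), with 1 lower at an unadjusted p, and 8 risen and 0 fallen in PANC-1 (median 0.45), with 0 lower at an unadjusted p. In CFPAC-1 the smallest p were those of CBS of transsulfuration (log2 fold change 1.89), the amino acid carrier gene SLC1A5 (1.08), the glycine carrier gene SLC6A9 (1.10) and SLC3A2, the heavy chain of system xc- (0.96; adjusted p at most 3.39e-04, limma). In PANC-1 CBS (0.92), SLC1A4 (1.07), SLC6A9 (0.81) and the transaminase gene GPT2 (0.62) had the smallest p (adjusted p at most 0.00508). GPT2 was not called without PANC-1 DMSO replicate 2 (0.0664), and risen members numbered 4 without PANC-1 DMSO replicate 1 and 5 without replicate 2. In a fit of PANC-1 alone 3 rose (CBS, SLC1A4 and SLC6A9).

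Genes that use or carry glutathione, or digest it further, were counted against the 1.32% and 2.38% of all tested genes called in CFPAC-1 and PANC-1. Of 30 glutathione-using enzymes, 1 rose and 0 fell in CFPAC-1 (median -0.03), and 0 rose and 1 fell in PANC-1 (median 0.03). At an unadjusted p under 0.05, 2 were higher and 1 lower in CFPAC-1, and 4 higher and 2 lower in PANC-1. Of all tested genes, 13.6% in CFPAC-1 and 17.6% in PANC-1 had an unadjusted p under 0.05 in either direction (limma). The risen gene was the peroxidase gene GPX2 (77.9 FPKM with DMSO and 107.7 with IKE, log2 fold change 0.46, adjusted p = 0.0449, limma), which lost its call without any 1 library except PANC-1 IKE replicate 2 (0.0550 to 0.242 after adjustment). The fallen gene was the peroxidase gene GPX1 (65.5 FPKM with DMSO and 47.8 with IKE, -0.45, adjusted p = 0.00632), which was not called without either PANC-1 DMSO library (0.0524 to 0.114). Without PANC-1 IKE replicate 2, 1 glutathione-using enzyme rose in PANC-1. Neither GPX2 nor GPX1 was called in a fit per line.

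Of the 10 tested genes of glutathione transport, 1 rose and 0 fell in CFPAC-1 (median 0.11), the efflux pump gene ABCC2 (0.77, adjusted p = 0.0206, limma). It was not called without either CFPAC-1 DMSO library or without CFPAC-1 IKE replicate 2 (0.0842 to 0.178 after adjustment), and 2 transport genes rose without PANC-1 IKE replicate 2. Over all tested genes, 13.6% in CFPAC-1 and 17.6% in PANC-1 had an unadjusted p under 0.05 (limma). At that level 3 transport genes were higher and 0 lower in CFPAC-1. In PANC-1 0 transport genes were called (median -0.13), with 1 higher and 3 lower at an unadjusted p under 0.05, and 1 fell without PANC-1 IKE replicate 2. In a fit per line 0 were called in either line. Of 14 further genes of the gamma-glutamyl cycle and of glutathione peptides, 6 were tested. In CFPAC-1 0 rose and 1 fell, the leucine aminopeptidase gene LAP3 (95.6 FPKM with DMSO and 74.7 with IKE, -0.35, adjusted p = 0.0303, limma). LAP3 lost its call without any 1 of the CFPAC-1 or PANC-1 DMSO libraries or CFPAC-1 IKE libraries (adjusted p from 0.0548 to 0.222). In a fit of CFPAC-1 alone LAP3 was not called. At an unadjusted p under 0.05, 0 of the 6 were higher and 2 lower in CFPAC-1. In PANC-1 0 of the 6 were called, with 1 higher and 0 lower at an unadjusted p under 0.05 (limma).

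Further textbook targets of the factors known for GCLC, GCLM, GSR and CHAC1 were counted beside them. These lists, too, were chosen with earlier results of these data known. Over all tested genes 0.864% rose and 0.459% fell in CFPAC-1, and 1.21% rose and 1.17% fell in PANC-1. Of 26 other NRF2 targets, 17 rose and 0 fell in CFPAC-1 (median 0.58), with 0 lower at an unadjusted p under 0.05. Among them were AKR1B10, of an aldo-keto reductase (1.35), NQO1, of a quinone reductase (0.72), and FTL, of the ferritin light chain (0.77; adjusted p at most 2.16e-04, limma). In PANC-1 13 rose and 0 fell (median 0.35), also with 0 lower at an unadjusted p. Among the risen were FTL (0.78), the autophagy receptor gene SQSTM1 (0.76), the haem oxygenase gene HMOX1 (2.67) and OSGIN1 (1.3). Their adjusted p was at most 8.20e-04 (limma). AKR1B10, AKR1C1, AKR1C2 and AKR1C3, picked out after their values were seen, had group means of at most 0.16 FPKM in PANC-1. They passed the filter through CFPAC-1 and could hardly be called in PANC-1. Risen NRF2 targets in CFPAC-1 numbered 9 and 8 without CFPAC-1 DMSO replicates 1 and 2, and 8 and 11 without CFPAC-1 IKE replicates 1 and 2. In PANC-1 they numbered 7 and 6 without DMSO replicates 1 and 2. In a fit per line 9 rose in CFPAC-1 and 4 in PANC-1.

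The ATF4 targets were read against the same shares of all tested genes (0.864% risen in CFPAC-1 and 1.21% in PANC-1). Of 26 other ATF4 targets tested, 19 rose and 0 fell in CFPAC-1 (median 1.01), with 0 lower at an unadjusted p under 0.05. These included the asparagine synthetase gene ASNS (2.50), the serine synthesis genes PSAT1 (2.47) and PHGDH (2.24), and the amino acid carrier gene SLC7A5 (1.98; adjusted p at most 6.60e-07, limma). In PANC-1 15 rose and 1 fell (median 0.46), with ASNS (1.39), PHGDH (1.06) and the tRNA ligase genes GARS1 (0.88) and WARS1 (0.67) of smallest p (adjusted p at most 2.05e-04). The fallen gene, picked out after its values were seen, was DDIT4 (-0.47, adjusted p = 0.0455), which lost its call in a fit of PANC-1 alone and without any 1 library except PANC-1 IKE replicate 2. Risen ATF4 targets in PANC-1 numbered 8 and 9 without DMSO replicates 1 and 2, and 7 in a fit of PANC-1 alone.

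Regulators were likewise set beside the 0.864% of all tested genes risen in CFPAC-1 and 1.21% in PANC-1. ATF3, CEBPB, CEBPG and DDIT3 are on both this list and that of the ATF4 targets, so the lists are not independent. Of 13 regulators, 2 rose and 0 fell in CFPAC-1 (median 0.33), with 0 lower at an unadjusted p under 0.05. ATF4 itself stood at 92.7 FPKM with DMSO and 230.0 FPKM with IKE (1.3, adjusted p = 2.98e-06, limma), and its partner CEBPG, which is also on the ATF4 target list, rose by 0.72 (adjusted p = 0.00170). In PANC-1 1 rose and 0 fell (median 0.22), MAFF, a small partner of NRF2 (0.90, adjusted p = 0.0419). MAFF lost its call without any 1 library except PANC-1 IKE replicates 2 and 3 (adjusted p from 0.0635 to 0.275), and risen regulators numbered 2 and 5 without those replicates. In a fit per line 1 regulator, ATF4, rose in CFPAC-1 and 0 in PANC-1. ATF4 was not called in PANC-1 (0.22, adjusted p = 0.0951). The transcript of NRF2, NFE2L2, was not called in CFPAC-1 (0.16, adjusted p = 0.306) or PANC-1 (-0.02, adjusted p = 0.896).

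**Figure D4:**
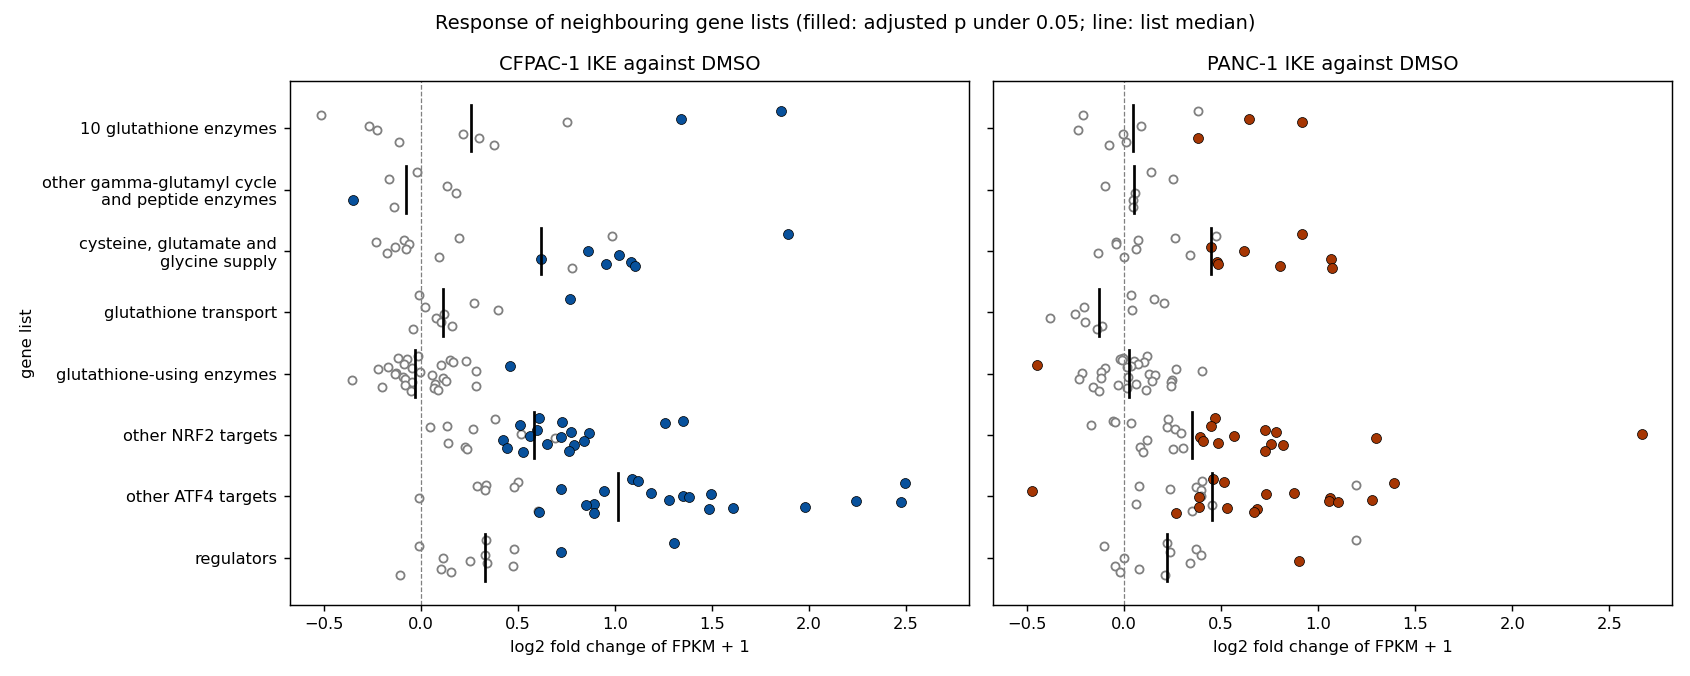
Log2 fold change of FPKM + 1 with IKE (x axis) of each tested gene in the 10 enzymes and the 7 neighbouring lists (y axis), for CFPAC-1 and PANC-1; filled points have an adjusted p under 0.05 (limma) and the vertical line is the list median. The medians of the ATF4 targets (1.01 and 0.46) and of the supply genes (0.62 and 0.45) lie to the right of 0, and those of the glutathione-using enzymes (-0.03 and 0.03) lie close to 0.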

How the data were processed

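Total RNA of the surviving cells was depleted of ribosomal RNA and sequenced, per the labels' protocols. The authors deposited FPKM per gene for 10 libraries in 1 table. The submitters' processing notes name HISAT2 2.1.0, Bowtie2 2.2.8, StringTie 1.3.4, fastp 0.18.0, DESeq2 and the build GRCh38. Settings, annotation and use of strand by the counting are not stated there or in the labels. The second strand was digested in library preparation, so the libraries carry strand. The table's 9 columns that belong to no sample are empty. FPKM keeps no read depth, so no counting error is given. The labels call the replicates biological without saying that they were separate cultures, so p-values measure the spread between these libraries.

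Of 20289 genes, the 13077 that reached 1 FPKM in 2 or more libraries were tested on log2(FPKM + 1) with limma 3.58.1 in R 4.3.3. Means of 4 groups were fitted over all 10 libraries (6 residual degrees of freedom) with an intensity trend in the variance prior. P-values were adjusted by Benjamini-Hochberg over all tested genes, and the threshold was 0.05. Fits without 1 library kept the filter set on all 10. The script was tested on simulated data.

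All 10 enzymes were named, with up to 4 called genes of smallest p from each of 7 lists in each IKE comparison, and the 3 most alike genes of each enzyme called under IKE, among genes whose mean log2(FPKM + 1) was 1 or more. A gene that this rule names is not reported here. The enzymes and lists were chosen with earlier results of these data known. Alternatives were quantile normalization, median-ratio scaling, no filter, a filter of 5 FPKM, a pseudocount of 0.1, a fit per line, no intensity trend, a replicate block, only replicates 1 and 2 or only 3 and 4 of PANC-1 with IKE, and leaving out each library. Promoter sequences are from RefSeq (GRCh38.p14) and gene positions from GENCODE 29 (GRCh38).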

Additional observations from a re-analysis of the deposited data

Results flagged for a closer look

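The IKE response of CHAC1 differed between the lines by a test of the difference itself: the log2 fold change in PANC-1 minus that in CFPAC-1 was -1.48 (SE 0.22, adjusted p = 0.0176, limma). The change was 1.86 in CFPAC-1, with both IKE libraries above both controls, and 0.38 in PANC-1, where the groups overlapped. The CFPAC-1 controls held only 0.86 and 0.63 FPKM. The call was lost with PANC-1 IKE replicates 1 and 2 alone (adjusted p = 0.0648, limma) and with the replicate block (0.0846). It was also lost without some single libraries, where the difference stayed between -1.69 and -1.27. CFPAC-1 received 10 µM and PANC-1 1 µM IKE, so the line and the dose cannot be told apart.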

How the results depend on the processing

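The enzymes called in CFPAC-1 were GCLC and CHAC1 under every alternative run. For PANC-1 the count of called enzymes was 3 and came to 0 in a fit per line, in which 32 genes of the table were called and 3 enzymes had a higher value at an unadjusted p under 0.05 (limma); with single libraries left out it ranged from 0 to 3. GCLM was also not called in PANC-1 without the filter (adjusted p = 0.0577). For the difference of the responses the count was 1 and came to 0 with PANC-1 IKE replicates 1 and 2 alone (2 enzymes lower at an unadjusted p under 0.05); with single libraries left out it ranged from 0 to 2. The replicate block also gave 0 for the difference (CHAC1 adjusted p = 0.0846, 2 lower at an unadjusted p under 0.05), and 2 for PANC-1, where GSR had an adjusted p of 0.0669; it gave 2 for CFPAC-1 and 8 between the lines. The block was fitted on replicates 1 and 2 of each group, without PANC-1 IKE replicates 3 and 4. Over all genes it called 127 against 173 in CFPAC-1, 154 against 311 in PANC-1 and 14 against 44 for the difference. The same libraries without the block called 161, 170 and 17 genes, so these falls cannot be put down to the block alone. Over all tested genes, deviations of libraries with the same replicate number were nearly uncorrelated (-0.0015 to 0.049 over 6 pairs of groups). A correlation over all genes cannot show a batch effect on few genes, so whether the number pairs libraries is unknown. Between the lines 8 enzymes were called in every alternative except the filter of 5 FPKM, which tested fewer genes and left 6. Of 772 values of single enzymes under an alternative, 726 kept their direction and side of the threshold, 20 lost and 1 gained a call, and 25 changed sign. The sign changes were all of values near 0, with adjusted p of at least 0.471. In PANC-1 with IKE they were GSS (-0.039 with replicates 3 and 4 alone; -0.015 to 0.042 with single libraries left out), GGCT (-0.025 with the replicate block and with replicates 1 and 2 alone), OPLAH (0.050 with both; -0.19 to 0.032 with single libraries left out) and GGT7 (0.036 with quantile normalization, 0.049 with the block and with replicates 1 and 2 alone; -0.030 to 0.042 with single libraries left out). For the difference it was GGT1 (0.0044 with median-ratio scaling, 0.10 with the block and with replicates 1 and 2 alone; -0.16 to 0.14 with single libraries left out). Between the lines they were GCLC (-0.11 to 0.11) and GSS (-0.032 to 0.018), with single libraries left out. The cause of these changes was not tested. With 2 libraries in 3 of the groups, a fit without 1 of them takes the spread of the lone library from the other groups. Values under 1 FPKM, as of CHAC2 in CFPAC-1 and GGT1 in PANC-1, are limited by the pseudocount. For the neighbouring lists, counts of 1 or 2 called genes moved under several alternatives. With a pseudocount of 0.1, 1 NRF2 target, AKR1C3, fell in PANC-1 (means of 0.16 FPKM with DMSO and 0.03 with IKE). With the same pseudocount 1 glutathione-using enzyme, GPX7, fell in CFPAC-1 (0.22 and 0.045 FPKM). Both genes were near 0 in these libraries. With quantile normalization 2 regulators rose in PANC-1. Larger counts moved in a fit per line, where risen NRF2 targets went from 17 to 9 in CFPAC-1 and from 13 to 4 in PANC-1. In PANC-1, risen ATF4 targets went from 15 to 7 there and risen supply genes from 8 to 3.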
